A study of Mus musculus with 12 samples.

Results

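The genes described here encode 9 enzymes that make and break down heme: *Alas1*, *Alad*, *Uros*, *Urod*, *Cpox*, *Ppox* and *Fech* on the synthetic side, and *Hmox1* and *Blvrb* on the side of breakdown. They were found by symbol among the 38926 gene symbols counted in each of 12 mouse liver RNA-seq libraries, and all 9 had enough reads to be tested. The libraries form 4 groups of 3: wild-type (WT) and *Rev-erbα*-/- (Rev KO) liver, each at zeitgeber time (ZT) 8 and ZT20, where ZT0 is lights on. Both genotypes were 12 weeks old on a 129Ola/C57BL6 background and were kept with 12 h of light and 12 h of dark and free access to food. Rev KO animals lack a functional REV-ERBα, the nuclear receptor encoded by *Nr1d1*, in every tissue, so that the liver is not the only organ without it. The males came from heterozygous breeding pairs, and no treatment was given to either genotype. The labels number the libraries of a group as replicates without saying which animal each came from, and the p-values below measure the spread between these libraries.

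Heme is built by a chain of enzymes that starts in the mitochondrion, continues in the cytosol and ends in the mitochondrion again. ALAS1, which joins glycine and succinyl-CoA, is the rate-limiting enzyme in liver, and its amount is held down by heme itself. Hepatocytes use much of their heme for cytochrome P450 enzymes. Heme oxygenase opens the heme ring to give biliverdin, carbon monoxide and iron, and biliverdin reductases then form bilirubin, which is excreted in bile. Heme is also a ligand of REV-ERBα, and *Alas1* is a known output of the circadian clock, so the pathway and the receptor missing in these animals are linked in both directions. The comparison of the genotypes at each time asks which of these transcripts differ when REV-ERBα is missing, and the comparison of the times asks which of them differ between day and night.

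Between 17641809 and 26060192 reads were assigned to genes per library, and 3 reads correspond to 0.117 to 0.167 CPM (reads scaled to a common library size). Non-unique alignments per assigned read were 1.76, 2.89 and 3.28 in WT ZT8 and 2.32, 2.29 and 2.72 in Rev KO ZT8. They were lower in every ZT20 library, at 1.67, 1.67 and 1.56 in WT and 1.56, 1.32 and 1.24 in Rev KO. This measure thus went with time, and within WT ZT8 it rose from library 1 to library 3. Its part in the comparisons over time or between genotypes was not tested. The lowest count of any member was 278 reads, for *Hmox1*, which carries a counting error of 6.00%. Reads on *Nr1d1* remained in Rev KO liver and did not check the genotype, at 63.0, 71.9 and 80.6 CPM at ZT8 against 129, 96.2 and 75.3 CPM in WT. *Arntl*, a clock gene that REV-ERBα represses, separated the genotypes at ZT8, with 0.80, 0.45 and 0.71 CPM in WT and 24.2, 25.7 and 22.7 CPM in Rev KO. At ZT20 *Arntl* was at 43.0 to 45.2 CPM in WT and 41.1 to 45.1 CPM in Rev KO and did not check the genotype of those libraries. WT ZT8 libraries 2 and 3 stood apart from the other 10 libraries in acute-phase genes of hepatocytes: the summed level of the 10 genes of that list was 30642 and 38662 CPM in these libraries and between 9324 and 12040 CPM in the others. Results that use WT ZT8 are therefore also given without that pair, beside them or among the processing alternatives, where this ends a call or turns a direction, in a fit in which WT ZT8 rests on library 1 alone and is assumed to vary like the other groups. The defining markers of hepatocytes summed to 60917 to 83885 CPM in WT ZT8 and 101214 to 111911 CPM in WT ZT20, without overlap. In Rev KO they summed to 68948 to 95404 CPM at ZT8 and 90418 to 98682.5 CPM at ZT20. *Alb* weighed most in these sums, at 33751 to 52476 CPM in WT ZT8 and 70282 to 77215 CPM in WT ZT20. The markers did not move together, as *Cyp2e1* was lower at ZT20, at 10080 to 10497.5 CPM in WT ZT8 and 6177 to 6469 CPM in WT ZT20. The part of these sums in the differences over time was not tested. Of the red cell markers, the 4 globin genes lay at or under 42.6 CPM and the sum over the 5 genes other than *Alas2* ranged from 16.0 to 43.1 CPM in WT ZT8, 29.3 to 55.4 CPM in Rev KO ZT8, 36.2 to 52.9 CPM in WT ZT20 and 20.3 to 80.7 CPM in Rev KO ZT20. Only unique alignments were counted, which can lower the values of globin genes, so these values do not measure the amount of red cell RNA. In whole tissue, fewer cells of a type and less RNA per cell cannot be told apart.

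Among the 7 members with a promoter in the RefSeq tables of build GRCm38.p6, the E-box CACGTG, the sequence bound by CLOCK and BMAL1, was found near a start of *Alad*, *Uros* and *Urod*. *Alad* is shown because it is the member that differed between the genotypes, and *Urod* because it has the same letters and a steady level. *Uros*, whose E-box begins 250 bases before a start, is not shown. No effect of an E-box on any level was tested. Each line gives the 250 bases before an annotated start, read on the minus strand of chromosome 4, with the E-box in capitals. The first *Alad* stretch lies at chr4:62520064-62520313 with its E-box 105 bases before the start, the second lies at chr4:62519910-62520159 with its E-box 28 bases before a start that is 154 bases downstream of the first, and the *Urod* stretch lies at chr4:116994414-116994663 with its E-box 49 bases before the start.
Alad, start 1: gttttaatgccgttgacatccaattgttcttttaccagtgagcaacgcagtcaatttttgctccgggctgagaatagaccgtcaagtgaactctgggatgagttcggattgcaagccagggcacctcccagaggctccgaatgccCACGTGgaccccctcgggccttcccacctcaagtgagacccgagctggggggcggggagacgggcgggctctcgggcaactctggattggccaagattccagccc
Alad, start 2: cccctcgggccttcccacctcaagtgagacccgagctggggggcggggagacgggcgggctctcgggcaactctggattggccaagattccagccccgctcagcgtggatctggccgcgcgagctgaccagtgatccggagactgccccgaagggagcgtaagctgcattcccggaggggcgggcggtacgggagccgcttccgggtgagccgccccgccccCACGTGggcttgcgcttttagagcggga
Urod: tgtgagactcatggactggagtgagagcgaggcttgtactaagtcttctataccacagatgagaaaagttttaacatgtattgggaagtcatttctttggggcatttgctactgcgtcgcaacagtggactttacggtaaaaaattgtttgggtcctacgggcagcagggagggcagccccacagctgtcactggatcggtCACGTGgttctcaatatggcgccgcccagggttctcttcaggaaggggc

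The 2 *Alad* E-boxes, at chr4:62520163-62520168 and chr4:62519932-62519937, are separate elements, and both lie upstream of the gene as GENCODE annotates it. Over all 32851 promoter windows of the table, 7.15% hold CACGTG on either strand in the 300 bases from 250 before to 50 after the start. The windows of *Alas1*, *Cpox*, *Ppox* and *Blvrb* hold none. No window of a member holds the half-site AGGTCA bound by REV-ERB and ROR proteins, which 16.3% of all windows hold, the D-box letters TTATGTAA or TTACGTAA, which 1.06% hold, or TGACNNNGC, the core of the antioxidant response element, which 12.4% hold. A match is a description of the letters in these windows, and a missing match says nothing about binding elsewhere. *Hmox1* and *Fech* have no entry in the table.

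Along the pathway the members differed widely in level when reads were divided by exon length. *Alad* was the highest, with a mean of 94.2 CPM per kb over the 12 libraries, followed by *Alas1* with 61.5 CPM per kb and a range of 15.9 to 150 CPM per kb. This order of the first pair held at ZT20, whereas at ZT8 the mean of *Alas1* was above that of *Alad*, at 101 ± 57.5 against 82.7 ± 29.5 CPM per kb (SD, n = 3) in WT and 92.9 ± 44.5 against 91.1 ± 4.12 CPM per kb in Rev KO, less than 1 SD of *Alas1*. *Urod*, *Blvrb* and *Cpox* had similar means of 32.0, 29.9 and 29.1 CPM per kb, with ranges that overlapped. *Fech* was at 14.8, *Hmox1* at 9.32, *Uros* at 7.10 and *Ppox* at 5.90 CPM per kb. Neighbours in this order overlapped over the 12 libraries, except that every value of *Cpox* lay above every value of *Fech*. Levels per kb use the summed exons of each gene in GENCODE, which can be longer than the transcript used in liver.

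**Figure D1:**
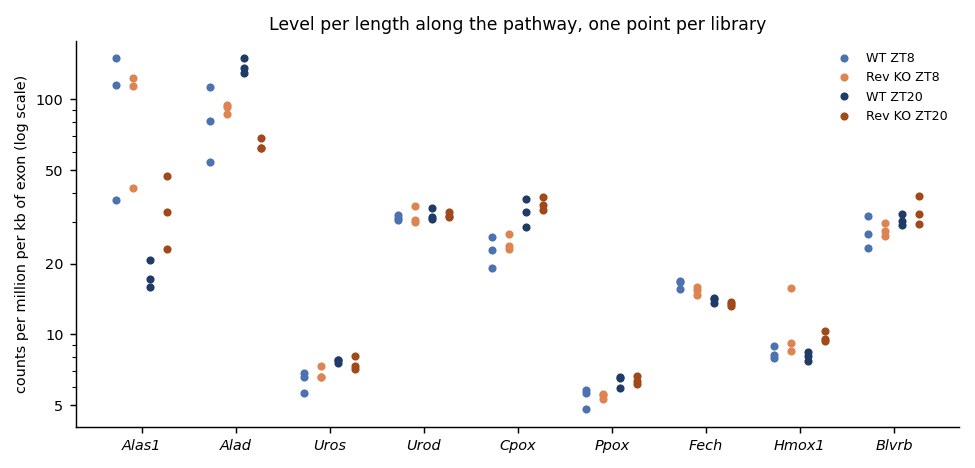
Level of each enzyme gene in CPM per kb of exon on a log scale, in pathway order from *Alas1* to *Blvrb*, with 1 point per library and the 4 groups in separate colours. *Alas1* spans from 15.9 to 150 CPM per kb, while *Fech* stays between 13.2 and 16.8 CPM per kb.

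*Alas1* (chr9:106233455-106248654, minus strand, mm10) encodes the first and rate-limiting enzyme of the pathway. In WT liver it was several fold lower at ZT20 than at ZT8, and no difference between the genotypes passed the test. In WT ZT8 it was at 230, 709 and 924 CPM, and in Rev KO ZT8 at 761, 702 and 259 CPM. In WT ZT20 it was at 128, 106 and 98.3 CPM, and in Rev KO ZT20 at 143, 205 and 292 CPM. Every WT library at ZT20 lay below every WT library at ZT8, whereas the highest Rev KO library at ZT20 lay above the lowest Rev KO library at ZT8. At ZT20 the 3 Rev KO libraries lay above the 3 WT libraries, and at ZT8 the Rev KO libraries lay inside the range of the WT libraries.

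The log2 fold change of *Alas1* from ZT8 to ZT20 was -2.48 ± 0.59 (SE, n = 3 per group) in WT, a ratio of 0.179 (adjusted p = 0.0147, edgeR), and -1.43 ± 0.57 in Rev KO (adjusted p = 0.128, edgeR). Without WT ZT8 libraries 2 and 3 the WT value was -1.06 and was no longer called (adjusted p = 0.355, edgeR), and it also missed the threshold without WT ZT20 library 2 (-2.45, adjusted p = 0.0552) or library 3 (-2.42, adjusted p = 0.0508). The difference between the genotypes was -0.11 at ZT8, with a 95% interval of -1.39 to 1.16 on the log2 scale, and 0.94 at ZT20, with an interval of -0.35 to 2.23. Without that pair of libraries the ZT8 value was 1.31 and not called (adjusted p = 0.498, edgeR). The time effect was not shown to differ between the genotypes, with an interaction of -1.06 ± 0.79 (adjusted p = 0.524, edgeR).

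Few genes varied as much between libraries of the same group. The pooled SD of *Alas1* within groups was 0.74 on the log2 scale, at percentile 98.1 of the 14488 genes tested, whose median was 0.16. In WT ZT8 the highest library was 4.02 times the lowest, in Rev KO ZT8 2.94 times, in Rev KO ZT20 2.04 times and in WT ZT20 1.30 times. Within WT ZT8, *Alas1* followed the order of the acute-phase gene *Saa1*, which was at 60.8, 4972 and 6489 CPM. Rev KO ZT8 libraries 1 and 2 had *Alas1* at 761 and 702 CPM and *Saa1* at 29.0 and 36.4 CPM, and the part of the acute-phase genes in the level of *Alas1* was not tested. *Fech*, the last enzyme of the same pathway, had a within-group SD of 0.05, at percentile 0.98, so the first and last steps stood near opposite ends of this scale.

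**Figure D2:**
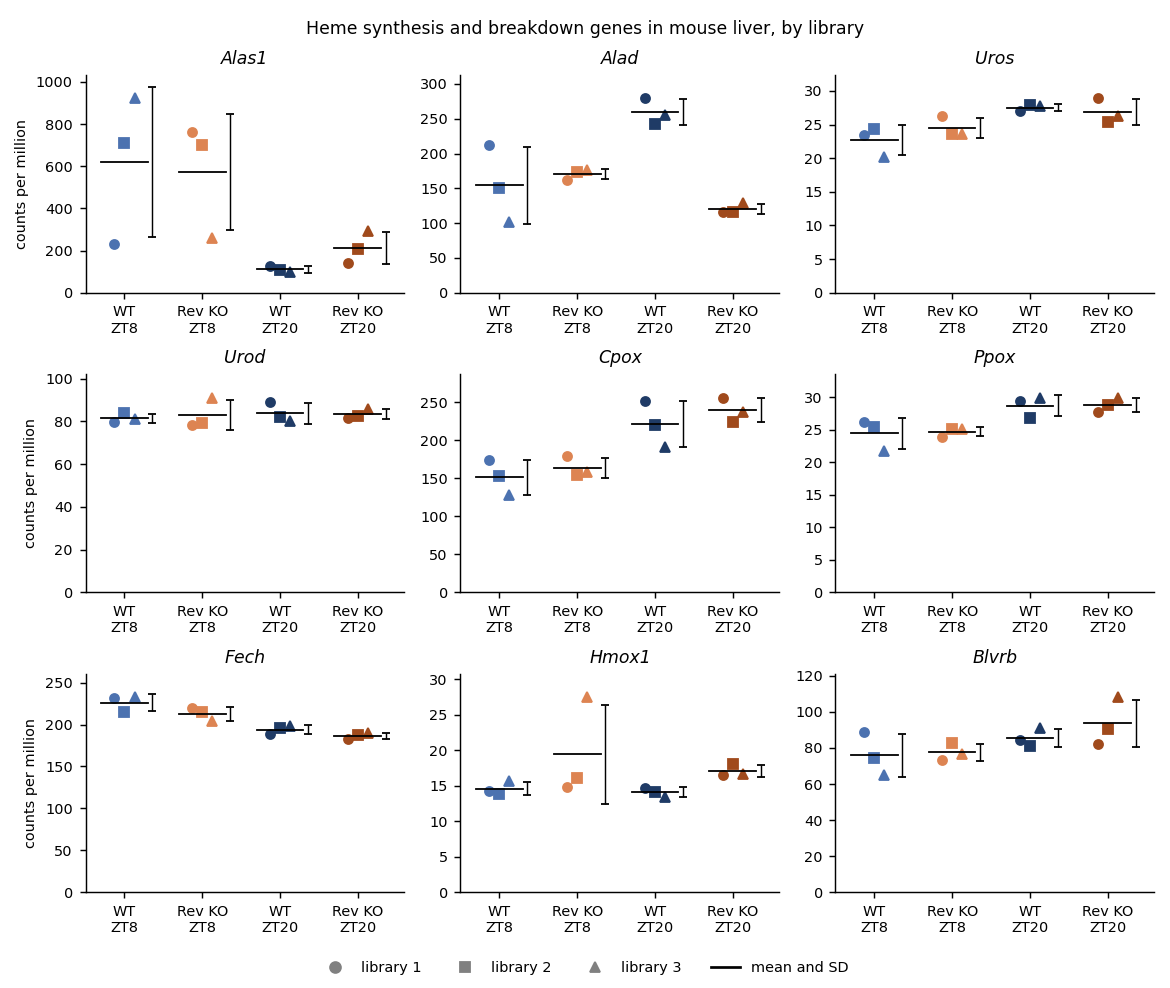
CPM of the 9 genes in each library, in 4 groups of 3, with the group mean as a bar, the SD as an error bar beside it and a marker shape for the library number within its group. *Alas1* at ZT8 ranges from 230 to 924 CPM in WT and from 259 to 761 CPM in Rev KO, and *Alad* in Rev KO ZT20, between 116 and 129 CPM, lies below every WT ZT20 library.

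*Alad* (chr4:62509169-62519918, minus strand) encodes aminolevulinate dehydratase, which joins pairs of aminolevulinate molecules into porphobilinogen. It was the only member called between the genotypes, and only at ZT20, where it was lower in Rev KO liver. In WT it rose from day to night, a call that was lost without WT ZT8 libraries 2 and 3, and in Rev KO its night values were lower than its day values, a difference that did not pass the test. In WT ZT8 it was at 212, 151 and 102 CPM, and in Rev KO ZT8 at 162, 173 and 176 CPM. In WT ZT20 it was at 279.9, 243 and 256 CPM, and in Rev KO ZT20 at 116, 117 and 129 CPM. The groups at ZT20 were far apart and did not overlap, whereas at ZT8 the Rev KO libraries lay inside the range of the WT libraries. Within Rev KO, every ZT20 library lay below every ZT8 library, and within WT every ZT20 library lay above every ZT8 library.

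At ZT20 the mean of *Alad* was 120.3 ± 7.1 CPM (SD, n = 3) in Rev KO and 259 ± 18.9 CPM in WT, a log2 fold change of -1.11 ± 0.20 (SE) and a ratio of 0.464 (adjusted p = 0.0131, edgeR). This was 1 of 9 members, or 1 in the lower direction, where 3.63% of the 14488 genes tested were called in either direction and 1.54% were called lower. At ZT8 the difference was 0.14, with a 95% interval of -0.30 to 0.58. The interaction of genotype and time, counted as the change from ZT8 to ZT20 in WT minus that in Rev KO, was 1.25 ± 0.28 (adjusted p = 0.0280, edgeR), again for 1 of 9 members, where 5.88% of genes were called and 3.05% in that direction. From ZT8 to ZT20 *Alad* rose by 0.74 ± 0.20 in WT (adjusted p = 0.0186, edgeR), and the value in Rev KO was -0.50 ± 0.20 (adjusted p = 0.116, edgeR).

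The size of the *Alad* difference at ZT20 hardly moved when single libraries were left out, between -1.05 and -1.16, but the call was lost without WT ZT20 library 1 (adjusted p = 0.0554, edgeR), Rev KO ZT20 library 1 (0.0584) or Rev KO ZT20 library 2 (0.0610). The interaction kept its call only without WT ZT8 library 1 or 3 among the 12 omissions of single libraries, and the other 10 gave adjusted p between 0.0529 and 0.0762 (edgeR) with values from 1.19 to 1.30. The spread of *Alad* came mainly from WT ZT8, where its CV was 35.7%, against 4.52%, 7.30% and 5.93% in Rev KO ZT8, WT ZT20 and Rev KO ZT20, and within WT ZT8 its order was the reverse of that of *Saa1*. Without WT ZT8 libraries 2 and 3 the difference at ZT20 was called (-1.10, adjusted p = 1.03e-06, edgeR), the interaction was smaller and called (0.79, adjusted p = 0.00574), the fall in Rev KO was called (-0.50, adjusted p = 0.000678), and the rise in WT was not (0.29, adjusted p = 0.126). Without WT ZT8 library 1, *Alad* was called higher in Rev KO at ZT8 (0.43, adjusted p = 0.0440, edgeR), and without the pair of libraries 2 and 3 its value there was -0.32 (adjusted p = 0.188), so its direction at ZT8 rested on which WT libraries were included. The rise in WT also missed the threshold without WT ZT8 library 2 (0.73, adjusted p = 0.0594), WT ZT20 library 1 (0.69, 0.0659) or WT ZT20 library 3 (0.74, 0.05002). It missed it as well with only the 6 samples compared (0.74, adjusted p = 0.107, edgeR) and with no filter on low counts (0.74, 0.0565). With only the 6 Rev KO samples the fall in Rev KO was called (-0.50, adjusted p = 0.00182, edgeR).

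Of the steps that follow, *Uros*, *Cpox* and *Ppox* rose modestly from ZT8 to ZT20 in WT, *Fech* fell slightly, and *Urod* stayed between 78.3 and 91.1 CPM in all 12 libraries. None of these 5 genes was called between the genotypes at either time.

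*Cpox* (chr16:58670292-58717636), coproporphyrinogen oxidase of the mitochondrial intermembrane space, was the member called over time in both genotypes. It was at 174, 153 and 128 CPM in WT ZT8 and 251, 220.3 and 190.5 CPM in WT ZT20, and at 179, 154 and 158 CPM in Rev KO ZT8 and 256, 224 and 237 CPM in Rev KO ZT20. In each genotype every ZT20 library lay above every ZT8 library. The rise was 0.54 ± 0.12 in WT (adjusted p = 0.00296, edgeR) and 0.55 ± 0.12 in Rev KO (adjusted p = 0.00503, edgeR), both a ratio of 1.46, and the 95% interval of the difference between these changes ran from -0.35 to 0.35. It was called without any one of the 12 libraries in both genotypes, but in WT not without the pair of WT ZT8 libraries 2 and 3 (0.34, adjusted p = 0.159, edgeR).

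*Uros* (chr7:133686243-133710072), uroporphyrinogen III synthase, was at 23.5, 24.4 and 20.2 CPM in WT ZT8 and at 27.0, 27.9 and 27.7 CPM in WT ZT20. The night values in WT lay above all day values, a rise of 0.28 ± 0.09 (adjusted p = 0.0255, edgeR). In Rev KO it was at 26.2, 23.6 and 23.7 CPM at ZT8 and at 29.0, 25.4 and 26.2 CPM at ZT20, with 0.13 ± 0.09 (adjusted p = 0.315, edgeR). The WT call was lost without WT ZT8 library 3 (0.20, adjusted p = 0.127), WT ZT20 library 2 (0.27, 0.0752) or library 3 (0.26, 0.0694), and without WT ZT8 libraries 2 and 3 together (0.22, 0.255).

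*Ppox* (chr1:171275990-171281186), protoporphyrinogen oxidase, had nearly the same values in both genotypes. It was at 26.2, 25.4 and 21.7 CPM in WT ZT8 and 29.4, 26.8 and 29.8 CPM in WT ZT20, and at 23.9, 25.1 and 25.1 CPM in Rev KO ZT8 and 27.7, 28.8 and 29.9 CPM in Rev KO ZT20. Night values lay above day values without overlap in each genotype. The change of 0.23 ± 0.08 passed the test in WT by a small margin (adjusted p = 0.0483, edgeR) and the change of 0.22 ± 0.08 in Rev KO did not (adjusted p = 0.0768, edgeR). The WT call held in 3 of 20 alternative analyses, with values between 0.12 and 0.28, and was lost with 10 of the 12 libraries left out in turn, with adjusted p between 0.0506 and 0.221, the exceptions being WT ZT8 library 1 and WT ZT20 library 2. Of the exons of *Ppox*, 17.5% are shared with *B4galt3* on the other strand, and reads in a shared stretch were counted for neither gene.

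*Urod* (chr4:116989965-116994413), uroporphyrinogen decarboxylase, differed by less than its spread in every comparison. It was at 79.6, 83.7 and 81.3 CPM in WT ZT8, 78.3, 79.4 and 91.1 CPM in Rev KO ZT8, 89.1, 82.1 and 80.0 CPM in WT ZT20 and 81.7, 82.4 and 85.9 CPM in Rev KO ZT20. All 4 groups overlapped. The 95% intervals of its log2 fold changes ran from -0.13 to 0.18 between the genotypes at ZT8, from -0.16 to 0.15 at ZT20, from -0.11 to 0.19 over time in WT and from -0.15 to 0.16 over time in Rev KO.

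*Fech*, on chromosome 18, encodes ferrochelatase, which inserts iron into protoporphyrin. It was at 231, 215 and 233 CPM in WT ZT8 and 189, 195 and 198 CPM in WT ZT20, and at 220.2, 215 and 204 CPM in Rev KO ZT8 and 182, 187 and 190 CPM in Rev KO ZT20. In each genotype all night values lay below all day values. *Fech* fell by 0.22 ± 0.07 on the log2 scale in WT (adjusted p = 0.0246, edgeR), and the value in Rev KO was -0.19 ± 0.07 (adjusted p = 0.0662, edgeR). The WT call was lost without WT ZT8 library 3 (-0.20, adjusted p = 0.0762), WT ZT20 library 1 (-0.20, 0.0866) or library 2 (-0.22, 0.0698), and without the pair of WT ZT8 libraries (-0.26, 0.0961). The difference between genotypes was -0.09 at ZT8, with an interval of -0.23 to 0.06, and -0.06 at ZT20, with an interval of -0.20 to 0.09.

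On the side of breakdown neither member was called in any comparison. *Hmox1* (chr8:75093621-75100589), the inducible heme oxygenase, was at 14.3, 13.9 and 15.7 CPM in WT ZT8, 14.9, 16.1 and 27.5 CPM in Rev KO ZT8, 14.7, 14.2 and 13.5 CPM in WT ZT20 and 16.5, 18.1 and 16.7 CPM in Rev KO ZT20. At ZT20 the 3 Rev KO libraries lay above the 3 WT libraries, and at ZT8 library 3 of Rev KO stood above the other 11 libraries. The difference was 0.42 ± 0.18 at ZT8, with a 95% interval of 0.02 to 0.81 (adjusted p = 0.186, edgeR), and 0.28 ± 0.18 at ZT20, with an interval of -0.12 to 0.67 (adjusted p = 0.549, edgeR). Without library 3 of Rev KO ZT8 the value at ZT8 was 0.08 (adjusted p = 0.650, edgeR), and without the pair of WT ZT8 libraries it was 0.45 (adjusted p = 0.580, edgeR). Macrophages also express *Hmox1*, and the summed level of 9 Kupffer cell and macrophage markers was 372, 490.4 and 600.4 CPM in WT ZT8 and 335, 352 and 414 CPM in Rev KO ZT8, and 324 to 398 CPM in WT ZT20 and 374 to 453 CPM in Rev KO ZT20, and its part in these values was not tested. The library with the most *Hmox1* was also the Rev KO ZT8 library with the least *Alas1*, 259 CPM, and the least *Bach1*, 29.2 CPM. *Blvrb* (chr7:27447978-27466144), biliverdin reductase B, was at 88.6, 74.4 and 64.8 CPM in WT ZT8, 73.1, 82.8 and 76.7 CPM in Rev KO ZT8, 84.4, 81.2 and 90.9 CPM in WT ZT20 and 82.0, 90.7 and 108 CPM in Rev KO ZT20. Its groups overlapped in every comparison, and its genotype differences were 0.03 at ZT8, with an interval of -0.22 to 0.27, and 0.13 at ZT20, with an interval of -0.11 to 0.37.

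Of the 9 members, more were called between times than between genotypes. Between Rev KO and WT at ZT8, 0 of 9 were called by edgeR and 0 by DESeq2, where edgeR called 8.45% and DESeq2 10.9% of all genes tested. By edgeR 1 member had an unadjusted p under 0.05, *Hmox1*. Between ZT20 and ZT8, 6 of 9 were called in WT, where 27.7% of all genes were called, with 4 higher against 13.8% of all genes and 2 lower against 13.9%. In Rev KO 1 of 9 was called, *Cpox*, which was higher, where 17.5% of all genes were called and 8.79% were called higher. DESeq2 called 5 in WT, beside 24.8% of all genes, and 3 in Rev KO, beside 16.7%, where *Alad* and *Fech* joined *Cpox*. Of the 9, 6 had an unadjusted p under 0.05 in Rev KO as in WT, and that a call was made in one genotype and not in the other does not show that the changes differed. The interaction was called for *Alad* alone. Without WT ZT8 libraries 2 and 3, 0 of 9 were called over time in WT by edgeR, with 3 at an unadjusted p under 0.05, where 11.9% of all genes were called, and 2 in Rev KO.

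The median log2 fold change of the 9 was 0.03 at ZT8 and 0.01 at ZT20 between genotypes, 0.17 over time in WT and 0.01 over time in Rev KO, beside medians over all genes of 0.00 to 0.01 in size. Groups did not overlap for 0 of 9 members between genotypes at ZT8 and 3 of 9 at ZT20, beside 25.6% and 22.5% of all genes, and for 6 of 9 over time in WT and 4 of 9 in Rev KO, beside 42.3% and 35.0%.

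**Figure D3:**
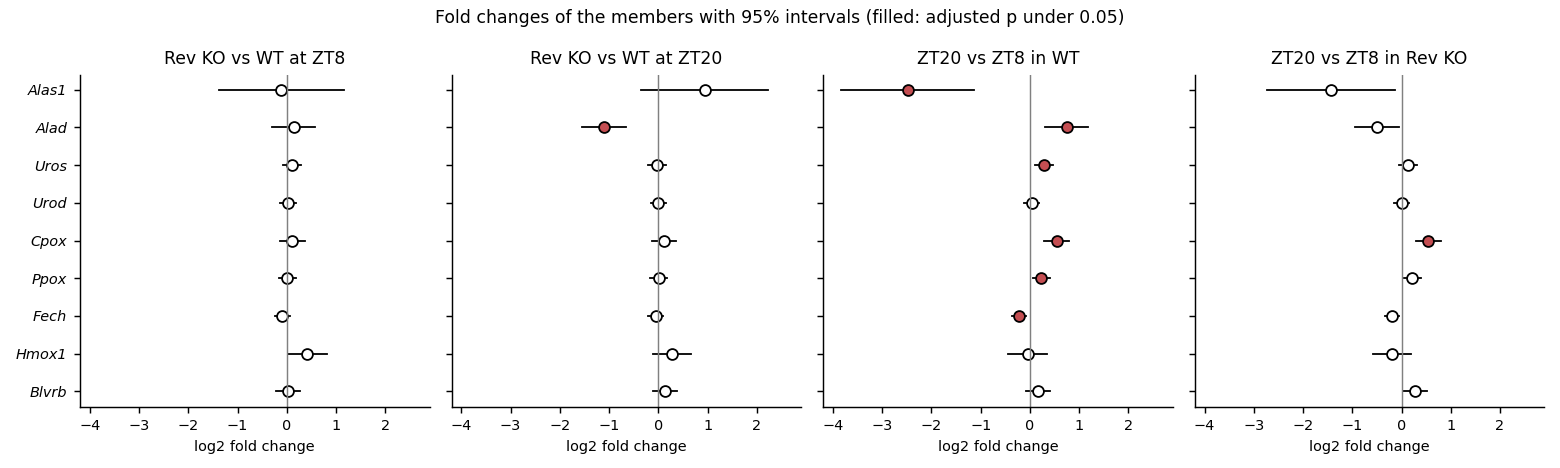
Log2 fold changes of the 9 genes (x axis) with their 95% intervals (lines) in 4 comparisons, filled where the adjusted p was under 0.05 by edgeR. In the comparisons of genotypes *Alad* at ZT20, at -1.11, is the only filled point, and the interval of *Alas1* is the widest in each panel.

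Of 3 related enzymes of heme synthesis and breakdown, 0 were called between the genotypes at either time by edgeR or DESeq2, and 0 had an unadjusted p under 0.05 by edgeR. *Alas2*, the form of the first enzyme that red cell precursors use, was at 203, 136 and 95.9 CPM in WT ZT8, 182, 209 and 184 CPM in Rev KO ZT8, 164, 158 and 192 CPM in WT ZT20 and 146, 155 and 207 CPM in Rev KO ZT20. These levels stood beside globin genes at or under 42.6 CPM, counted from unique alignments only, and the part of red cells in the level of *Alas2* was not tested. Within WT ZT8 *Alas2* had the order of *Alad*. Its difference was 0.41 at ZT8, with an interval of -0.13 to 0.95. Without WT ZT8 library 1 it was 0.72 and called (adjusted p = 0.0222, edgeR), and without libraries 2 and 3 it was -0.08 and not called (adjusted p = 0.903). Over time *Hmox2*, the constitutive heme oxygenase, fell in Rev KO by 0.45 ± 0.08 (adjusted p = 0.00177, edgeR), beside -0.15 ± 0.08 in WT (adjusted p = 0.180), where 40.2% of its exons are shared with *Cdip1* on the other strand and reads there were counted for neither. *Blvra*, the other biliverdin reductase, fell in WT by 0.31 ± 0.08 (adjusted p = 0.00947, edgeR), beside -0.22 ± 0.08 in Rev KO (adjusted p = 0.0678). Its WT value was -0.27 and not called without WT ZT8 libraries 2 and 3 (adjusted p = 0.179, edgeR).

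Around the members, 8 of 59 tested genes from the 7 other lists of heme metabolism were called between the genotypes at ZT8, beside 8.45% of all genes. The count at ZT20 was 0, beside 3.63%, both by edgeR in the fit of all 12 libraries. At ZT20, 9 had an unadjusted p under 0.05 and DESeq2 called 2, *Abcg2* and *Abcc2*, beside 4.15% of all genes. Without WT ZT8 libraries 2 and 3 the count at ZT8 was 3 of 59, beside 2.29% of all genes, made up of *Clpx*, *Slc25a37* and *Nfe2l2*, the last of which, like *Abcc2*, was named after its values were seen.

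Among the 8 tested regulators of ALAS1 turnover and heme sensing, 1 was higher and 1 lower in Rev KO at ZT8. *Clpx*, the unfoldase of the mitochondrial ClpXP protease that acts on ALAS1 protein, was at 96.1, 70.8 and 66.1 CPM in WT ZT8 and 186, 208 and 197 CPM in Rev KO ZT8. At ZT20 it was at 303, 325 and 323 CPM in WT and 265, 263 and 270 CPM in Rev KO. It thus rose steeply from day to night in WT and had intermediate levels in Rev KO, above WT by day and below it by night without overlap. The difference at ZT8 was 1.34 ± 0.11, a ratio of 2.53 (adjusted p = 2.8e-06, edgeR), that at ZT20 was -0.25 ± 0.11 (adjusted p = 0.286), and the interaction was 1.60 ± 0.16 (adjusted p = 1.92e-05). *Clpx* was called at ZT8 and in the interaction under every alternative tried, and without WT ZT8 libraries 2 and 3 the values were 1.03 and 1.28. *Bach1*, a heme-binding repressor of *Hmox1*, was at 52.9, 65.7 and 76.7 CPM in WT ZT8 and 43.2, 40.1 and 29.2 CPM in Rev KO ZT8, lower by 0.79 ± 0.16 (adjusted p = 0.00853, edgeR), and was not called without the pair of WT ZT8 libraries (-0.50, adjusted p = 0.224). Its WT values rose with those of *Saa1*.

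In the list of heme, porphyrin and precursor transport, 16 of 18 genes were tested, and 1 was higher and 1 lower in Rev KO at ZT8. *Slc25a37*, mitoferrin-1, which carries iron into mitochondria, was at 74.7, 65.5 and 55.3 CPM in WT ZT8 and 48.1, 48.2 and 45.1 CPM in Rev KO ZT8, and at 67.9, 68.7 and 69.8 CPM in WT ZT20 and 82.1, 83.3 and 81.6 CPM in Rev KO ZT20. It was lower than WT by day and higher by night, with no overlap at either time. The difference was -0.47 ± 0.09 at ZT8 (adjusted p = 0.00371, edgeR) and 0.26 ± 0.09 at ZT20 (adjusted p = 0.136), and the interaction was -0.73 ± 0.12 (adjusted p = 0.00224). From ZT8 to ZT20 it rose by 0.80 ± 0.09 in Rev KO (adjusted p = 2.25e-05, edgeR), while its change in WT was 0.08 ± 0.09. Without WT ZT8 libraries 2 and 3 the change in WT was -0.12. The ZT8 difference and the interaction were called under every alternative tried. *Abcg2*, an exporter of porphyrins, was at 149.9, 132.4 and 131.7 CPM in WT ZT20 and 209, 168 and 166 CPM in Rev KO ZT20, without overlap. It was not called there by edgeR in the fit of all 12 libraries, and in the fit without WT ZT8 libraries 2 and 3 its ZT20 difference was 0.40. At ZT8 *Abcg2* was higher in Rev KO by 0.42 ± 0.11 (adjusted p = 0.0317, edgeR), with 140.4, 116 and 110.0 CPM in WT and 151, 182 and 157 CPM in Rev KO. That call was lost without WT ZT8 library 2 (0.39, adjusted p = 0.134), WT ZT8 library 3 (0.35, 0.123) or Rev KO ZT8 library 2 (0.34, 0.144), and without the pair (0.22, 0.587).

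**Figure D4:**
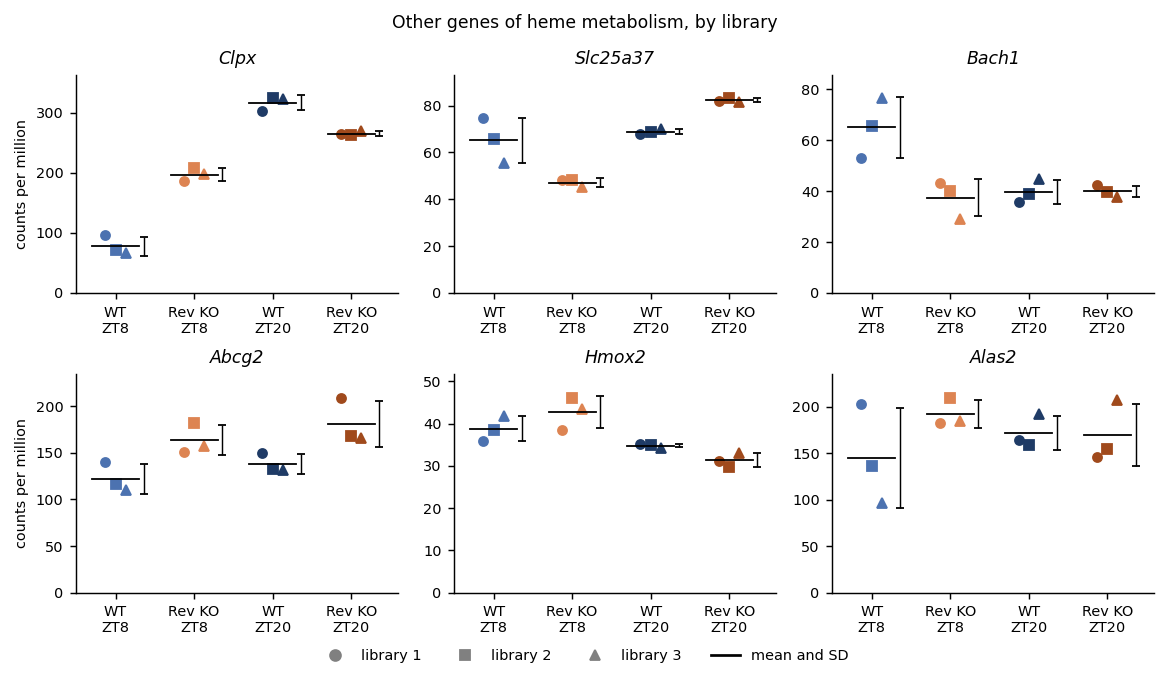
CPM per library of 6 genes next to the 9 members in heme metabolism, drawn as in the plot of the members. *Clpx* rises from 66.1 to 96.1 CPM at ZT8 to 303 to 325 CPM at ZT20 in WT and lies between these in Rev KO, and *Slc25a37* is lower in Rev KO at ZT8 and higher at ZT20.

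Of 11 transcription factors linked to *Alas1*, 1 was higher and 1 lower in Rev KO at ZT8. *Ppargc1a*, a coactivator that induces *Alas1* in fasting, was at 13.1, 15.1 and 16.1 CPM in WT and 10.8, 8.72 and 7.59 CPM in Rev KO, lower by 0.71 ± 0.14 (adjusted p = 0.00525, edgeR), and was not called without the pair of WT ZT8 libraries (-0.54, adjusted p = 0.198). *Hnf4a*, a hepatocyte nuclear receptor, was at 763, 809 and 811 CPM in WT and 904, 994 and 1138 CPM in Rev KO, higher by 0.35 ± 0.10 (adjusted p = 0.0366, edgeR), with an interaction of 0.50 ± 0.14 (adjusted p = 0.0415). With the replicate number as a block neither was called (adjusted p = 0.0532 and 0.0622, edgeR), nor was the ZT8 difference with only the 6 samples compared (0.117). Leaving out single libraries ended the ZT8 call in 7 of 12 cases, with adjusted p of up to 0.117, the exceptions being Rev KO ZT8 library 1, WT ZT20 libraries 1 and 3 and Rev KO ZT20 libraries 1 and 3. It ended the interaction call in 9 of 12, with adjusted p of up to 0.111, the exceptions being library 1 of WT ZT8, Rev KO ZT8 and Rev KO ZT20. Without the pair of WT ZT8 libraries neither was called. Over time *Dbp*, *Tef*, *Hlf* and *Rxra* were the 4 factors of this list called lower at ZT20 in WT, named here after their values were seen, and the first 3, which bind D-boxes and are known regulators of *Alas1*, were also called lower in Rev KO. Without the pair of WT ZT8 libraries these 3 were called in both genotypes and *Rxra* was not called in WT (-0.31, adjusted p = 0.103, edgeR). *Dbp* fell by 5.73 ± 0.18 in WT and by 5.88 ± 0.18 in Rev KO on the log2 scale (adjusted p = 2.13e-10 and 9.27e-10, edgeR), and its genotype differences were -0.19 at ZT8 and -0.34 at ZT20, neither called.

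In the list of scavengers of heme and hemoglobin, 1 of 4 was called at ZT8. *Hp*, haptoglobin, was at 1944, 6316 and 7985 CPM in WT and 1658, 1671 and 1747 CPM in Rev KO, lower by 1.68 ± 0.40 (adjusted p = 0.0341, edgeR). It is also on the acute-phase list, its high values were those of WT libraries 2 and 3, and without them its value was -0.20 and not called (adjusted p = 0.559). Leaving out single libraries ended the call in 10 of 12 cases, with adjusted p between 0.0520 and 0.108, the exceptions being WT ZT8 library 1 and WT ZT20 library 3. Of 7 genes of bilirubin disposal, *Slco1a1*, an uptake carrier for organic anions, was called at ZT8, higher in Rev KO by 0.43 ± 0.12 (adjusted p = 0.0360, edgeR), and without the pair of WT libraries its value was 0.20 and not called (adjusted p = 0.619). Leaving out WT ZT8 library 2 or 3, Rev KO ZT8 library 1 or 2, WT ZT20 library 2 or Rev KO ZT20 library 2 also ended that call, with adjusted p between 0.0537 and 0.164. Of 10 tested heme-containing or heme-delivering enzymes outside cytochrome P450, 0 were called between the genotypes at either time by edgeR, with 2 at an unadjusted p under 0.05 at ZT8 and 1 at ZT20. DESeq2 called 1 of the 10 at ZT8 and 0 at ZT20, beside 10.9% and 4.15% of all genes.

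Over the 12 libraries, the genes whose log2 CPM followed *Alas1* most closely were *Ciapin1* (Pearson r = 0.942), *Eif4e3* (0.937), *Gm16907* (0.936), *Tifa* (0.931) and *Vwa5a* (0.928). These values describe libraries of 4 groups that differ in genotype and time. Among the members, *Cpox* and *Fech* had the strongest relation, r = -0.872, followed by *Ppox* and *Blvrb* with 0.864 and *Uros* and *Cpox* with 0.849, and *Alas1* and *Alad* had -0.530.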

How the data were processed

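Liver RNA of 12 libraries was made into poly(A) libraries and sequenced to at most 75 bp. Per the paper's methods and the submitters' processing notes, the authors aligned reads to mm10 with TopHat, kept unique alignments and assigned them to gene names with HTSeq (union mode, minimum quality 10, strand ignored). The deposited values are these raw counts. In union mode a read in exons of 2 genes counts for neither. The 5 summary lines of each file were left out. Without strand, a gene and its antisense partner cannot be told apart, which concerns *Alas1* (7.53% of exons), *Cpox* (3.06%), *Ppox*, *Hmox2* and *Alas2* (12.9%, with *Apex2*).

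Counts were normalised by TMM and tested with edgeR 4.0.16 (robust quasi-likelihood, R 4.3.3) over 4 group means of 12 libraries after filterByExpr, which left 14488 genes. P-values were adjusted by Benjamini-Hochberg over these genes, and 0.05 was the threshold for a call. CPM use TMM-scaled totals. Fold changes are log2 values with standard errors and 95% intervals. Correlations use log2 CPM with a prior count of 2. The steps were tested on simulated data. Members and gene lists were chosen with earlier results of these data known. Named were all 9 members, 3 related enzymes, up to 4 genes per other list called for genotype or interaction, *Nr1d1* and *Arntl*, and the 5 genes most like *Alas1*. Alternatives were DESeq2 1.42.0, RLE size factors, other filters and thresholds, the compared groups only, a replicate block and omitted libraries. Their use on genes other than the members was chosen after seeing the data. Gene positions are from GENCODE M21 (mm10) and promoters from RefSeq. The authors used DESeq2 1.6.3 for their own tests, not used here. Items withheld for evaluation are not reported here.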

Additional observations from a re-analysis of the deposited data

Results flagged for a closer look

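In 4 genes of the lists the effect of genotype differed between ZT8 and ZT20 by the interaction test of edgeR, 1 of the 9 members and 3 of 59 others, beside 5.88% of all genes called in this test. The share over the lists is near that of all genes, so the count does not set the lists apart. For *Alad* the interaction was 1.25 on the log2 scale (adjusted p = 0.0280), with a change from ZT8 to ZT20 of 0.74 in WT and of -0.50, not called, in Rev KO. For *Clpx* it was 1.60 (adjusted p = 1.92e-05), with a difference between genotypes by day of 1.34 and by night of -0.25. For *Slc25a37* it was -0.73 (adjusted p = 0.00224), with Rev KO below WT by day and above it by night. For *Hnf4a* it was 0.50 (adjusted p = 0.0415), with Rev KO above WT by day. In WT ZT8 the values of *Alad*, *Clpx* and *Slc25a37* were all highest in library 1 and lowest in library 3, the reverse of the order of *Saa1*. Non-unique alignments per assigned read had the order of *Saa1* there, at 1.76, 2.89 and 3.28. The part of the spread within WT ZT8 in the interactions was not tested. Without libraries 2 and 3 of that group the interactions of *Alad*, *Clpx* and *Slc25a37* were 0.79, 1.28 and -0.93 and still called, and that of *Hnf4a* was 0.55 and not called (adjusted p = 0.101).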

How the results depend on the processing

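Of 891 values of single members under the alternatives, 782 kept their direction and their side of the threshold, 56 kept their direction and lost a call, 7 gained a call, and 46 changed sign, none of them called in either fit. Many of these values were bound to agree, so the count is no measure of stability. The threshold of 0.01 reuses the main fit, and leaving out a library outside a comparison hardly changes its fold change. At an adjusted p under 0.01 the count of members called was 0 between genotypes at ZT20, 0 in the interaction and 1 over time in WT, beside 1.54%, 2.46% and 16.2% of all genes. With no filter on low counts it was 0 in the interaction and 3 over time in WT, beside 3.70% and 16.1% of all genes. Over time in Rev KO the count of members called was 3 with DESeq2 and 2 with only the 6 samples compared, beside 16.7% and 16.3% of all genes. Without WT ZT8 libraries 2 and 3 it was 0 over time in WT and 2 in Rev KO. Leaving out single libraries gave 0 to 1 at ZT8, 0 to 1 at ZT20, 0 to 1 in the interaction, 2 to 6 over time in WT (2 without WT ZT20 library 3) and 1 to 2 over time in Rev KO. The cause of these differences was not tested. Fits that left out libraries or used only the compared groups also rested on fewer samples.

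Without WT ZT8 libraries 2 and 3, log2 fold changes that changed sign at ZT8 were 1.31 for *Alas1*, -0.32 for *Alad*, -0.090 for *Cpox*, -0.091 for *Ppox* and -0.20 for *Blvrb*. In the interaction they were 0.37 for *Alas1* and -0.10 for *Ppox*, and over time in WT -0.057 for *Blvrb*. With no filter the interaction of *Ppox* was -0.00072. Ranges that crossed 0 when single libraries were left out were, at ZT8, -0.51 to 0.29 for *Alas1*, -0.089 to 0.43 for *Alad*, -0.047 to 0.061 for *Urod*, -0.063 to 0.065 for *Ppox* and -0.072 to 0.15 for *Blvrb*. At ZT20 they were -0.093 to 0.0044 for *Uros*, -0.032 to 0.041 for *Urod* and -0.042 to 0.041 for *Ppox*. In the interaction they were -0.040 to 0.064 for *Urod*, -0.11 to 0.10 for *Cpox*, -0.068 to 0.057 for *Ppox*, -0.064 to 0.0016 for *Fech*, -0.19 to 0.30 for *Hmox1* and -0.20 to 0.017 for *Blvrb*. Over time they were -0.0080 to 0.058 for *Urod* and -0.083 to 0.0051 for *Hmox1* in WT, and -0.031 to 0.079 for *Urod* and -0.35 to 0.15 for *Hmox1* in Rev KO.

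No pairing by replicate number was seen: deviations from the group means correlated by -0.014 on average between libraries of the same number, from -0.083 to 0.074. The mean between other libraries, 0.0071, largely follows from centring each group and is not a separate comparison. An average near 0 cannot exclude a pairing. With the replicate number as a block, the counts of members called were 0 and 1 between genotypes at ZT8 and ZT20, 1 in the interaction, 5 over time in WT and 1 in Rev KO. In the same order, the shares of all genes called were 8.35%, 3.31%, 5.74%, 26.8% and 16.6%. Of the other genes called at ZT8, *Hp* (0.0681) and *Hnf4a* (0.0532) missed the threshold with the block. With only the 6 samples compared, *Abcg2* (0.0566), *Hp* (0.171), *Bach1* (0.0523), *Hnf4a* (0.117) and *Slco1a1* (0.0921) missed it, and with no filter *Hp* did (0.0628, all adjusted p by edgeR). With 3 libraries a group, the 95% interval of the *Alas1* difference between genotypes spanned -1.39 to 1.16 at ZT8.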
